A study of Mus musculus with 6 samples.

Results

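The replication-dependent histone genes encode the core histones H2A, H2B, H3 and H4, around which DNA is wound into nucleosomes, and the linker histone H1, which binds DNA between nucleosomes. Members were the genes whose symbol starts with Hist1h, Hist2h, Hist3h or Hist4h, and 68 of the 23412 genes in the expression table met this rule: 6 H1, 18 H2A, 19 H2B, 12 H3 and 13 H4 genes. They were measured by RNA-seq in undifferentiated mouse embryonic stem cells (mESCs) of strain 129Sv, kept without feeder cells. R1 mESCs are wild type for Htt, and HN mESCs (Htt-/-) lack the promoter and exon 1 of both copies of Htt, the gene for huntingtin. Each line gave 3 libraries, and libraries with the same replicate number were collected on the same date. The labels name no second Htt-null line, so the genotype and any other difference between these lines cannot be told apart.

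Htt itself was at 230, 257 and 199 normalized counts in the R1 libraries and at 18.3, 58.1 and 54.2 in the HN libraries, a log2 difference of -2.52 (adjusted p = 0.0141, limma). Between 1640391 and 3866717 reads per library fell on genes, and histone genes took from 0.992% to 1.60% of them. All 8 stem cell markers of the list were detected, but their levels were not equal between the lines. With the collection date as a block, 4 of the 8 were higher in HN at an adjusted p under 0.05 by limma (Tfcp2l1, Klf4, Esrrb and Nanog, with log2 differences of 0.56, 0.53, 0.37 and 0.28) and Zfp42 was lower (-0.79), while Pou5f1, Sox2 and Tdgf1 did not pass (0.00, 0.00 and -0.18). The 14 markers of neural, mesoderm, endoderm and fibroblast cells summed to between 697 and 1111 normalized counts per library, of which Vim, a filament protein gene that stem cells express as well, took from 371 to 863. The part of these markers in the histone results was not tested. Because the RNA was bulk, fewer cells that express a gene and less of its RNA per cell cannot be told apart.

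Cells make these histones mostly in S phase, when newly copied DNA has to be packed. Their genes are short, mostly without introns, and lie in clusters, where H2A and H2B genes often sit head to head. Their mRNAs normally end in a conserved stem-loop in place of a poly(A) tail. The stem-loop is bound by the protein SLBP and the end is cut with the help of the U7 small nuclear RNA. The library kit used here selects RNA with a poly(A) tail, so a normalized count of a histone gene reflects the RNA that entered such a library and not all of its mRNA.

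A stem-loop was found in the annotated transcripts of 44 members, in 6 forms. The most frequent form was shared by 26 members and the rarest occurred in 1. The sites below are those of the called genes for which the annotation reaches the end of the mRNA, with the 16 bases of the stem-loop in capitals, 5′ to 3′, as DNA letters.
Hist1h2bm: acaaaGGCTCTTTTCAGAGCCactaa
Hist1h2bp: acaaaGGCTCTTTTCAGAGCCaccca
Hist1h4i: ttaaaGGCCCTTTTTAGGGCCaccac
Hist1h4j: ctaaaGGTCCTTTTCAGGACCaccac
Hist1h2bm, which was higher in HN, and Hist1h2bp, which was lower, have the same 16 bases. For Hist1h4i and Hist1h4j the annotation goes on for 330 and 385 bases past the stem-loop, and 22 of the 44 members had more than 100 such bases.

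Promoters are shown for the genes with the largest differences and for the region between Hist1h2an and Hist1h2bp. Each window runs from 250 bases before to 50 bases after the start of the RefSeq gene (GRCm38.p6), 5′ to 3′ on the strand of the gene. Capitals mark a TATA box (searched as TATAAA), the box whose letters are CCAAT or the octamer found in many histone promoters (ATTTGCAT), on either strand. No marked match overlaps another in these windows.
Hist1h2bm, plus strand, chr13:21721794-21722093: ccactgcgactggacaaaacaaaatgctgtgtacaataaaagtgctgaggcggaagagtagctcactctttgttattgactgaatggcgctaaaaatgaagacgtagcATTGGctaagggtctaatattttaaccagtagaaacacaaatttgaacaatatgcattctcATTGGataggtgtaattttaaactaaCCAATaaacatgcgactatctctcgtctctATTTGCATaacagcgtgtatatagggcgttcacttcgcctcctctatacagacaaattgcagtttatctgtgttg
Hist1h4i, minus strand, chr13:22041313-22041612: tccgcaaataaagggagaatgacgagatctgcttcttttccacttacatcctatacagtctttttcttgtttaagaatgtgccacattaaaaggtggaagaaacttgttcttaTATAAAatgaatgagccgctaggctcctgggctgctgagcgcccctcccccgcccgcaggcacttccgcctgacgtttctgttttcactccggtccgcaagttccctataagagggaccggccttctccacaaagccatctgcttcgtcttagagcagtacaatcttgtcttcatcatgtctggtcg
Hist1h2bp, plus strand, chr13:21787238-21787537: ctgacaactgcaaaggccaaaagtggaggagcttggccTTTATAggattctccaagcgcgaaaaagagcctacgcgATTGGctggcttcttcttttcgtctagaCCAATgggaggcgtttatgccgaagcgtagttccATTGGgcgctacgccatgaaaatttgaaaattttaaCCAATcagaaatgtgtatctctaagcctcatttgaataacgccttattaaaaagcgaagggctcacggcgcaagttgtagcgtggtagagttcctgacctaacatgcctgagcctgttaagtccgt
The Hist1h2bm window holds the octamer and 3 CCAAT boxes, the Hist1h4i window 1 TATAAA and neither of the others. The Hist1h2bp window holds 4 CCAAT boxes and 1 TATAAA on the other strand, which is the TATA box of Hist1h2an at position -33 from its own start. A match is a description of letters and not a tested site.

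Of the 68 members, 61 had a promoter window. CCAAT was found in 85.2% of these windows and in 37.4% of the 32851 RefSeq promoters of the same length. All windows of H1, H2A, H2B and H3 genes held it, compared with 25.0% of the 12 H4 windows. The octamer was found in 21.3% of member windows and 1.74% of all promoters, and it occurred in H2A (41.2%) and H2B (37.5%) windows and in none of the H1, H3 or H4 windows. TATAAA was found in 57.4% of member windows and 13.6% of all promoters. A match counted at any position and on either strand. Examples are -137 in Hist1h4i, 42 in Hist1h4a and, on the other strand, -190 in Hist1h2bn. The share is thus not that of genes with a TATA box at a set distance from the start. Windows of head-to-head genes overlap, so they are not independent.

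Of the 68 members, 61 had a mean of at least 5 normalized counts over the 6 libraries and were tested. Means ranged from 9.53 for Hist2h2be, an H2B gene, to 2573 for Hist1h1a, a linker histone gene. The other 7 were at or near 0. Hist1h2ao, Hist1h2ap, Hist1h2bq, Hist1h2br and Hist2h2aa1 had 0 reads in all libraries, Hist1h4m had 1 read in 1 HN library, and Hist2h2aa2 had at most 2 reads in a library. Between 88.7% and 100% of the 50-base stretches of these 7 genes also occur in transcripts of other genes that do not overlap them. A read from such a stretch alone cannot be assigned to 1 gene, so the low counts are not taken as a measure of activity. Some tested members shared as much and were well covered, such as Hist1h3h (93.9% shared, mean of 278 normalized counts). The part of sharing in the low counts was not tested. Shared stretches are found in many tested members as well. More than 50% of the stretches were shared in 30 of the 68 members, and the median was 73.0% in H2A, 57.2% in H3, 43.8% in H2B, 39.5% in H4 and 1.15% in H1 genes.

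The lines were then compared gene by gene to ask which histone genes differed between HN and R1. A gene was called where its adjusted p was under 0.05 and its log2 difference between HN and R1 above 1 in size. Without a term for the collection date, 2 of the 61 members were called higher in HN, Hist1h2bm and Hist1h2bn, and 2 lower, Hist1h4i and Hist1h2bp, while 0.119% and 0.126% of all 14276 genes tested were called. With the date as a block, Hist1h4j was called higher as well, so that 3 were higher and 2 lower, against 0.911% and 1.04% of all genes. All 5 encode core histones, 3 of them H2B and 2 H4.

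Hist1h2bm, an H2B gene (ENSMUSG00000114279.1, chr13:21722044-21722567, plus strand), was at 156, 134 and 111 normalized counts in the R1 libraries and at 600, 573 and 518 in the HN libraries. The lowest HN library was far above the highest R1 library. Its log2 difference was 2.08 (standard error 0.20, adjusted p = 6.34e-04 by limma, and 8.22e-16 with the block). It shares 43.8% of its stretches with other genes, 31.4% with Hist1h2bp, the called H2B gene that was lower in HN.

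Hist1h2bn, an H2B gene (ENSMUSG00000095217.1, chr13:21754123-21754503, plus strand), was at 199, 151 and 139 normalized counts in R1 and at 457, 318 and 392 in HN. The lines did not overlap, and the log2 difference was 1.25 (standard error 0.22, adjusted p = 0.0416 by limma, and 7.50e-10 with the block). This call without the block was the least stable, since it was lost in 5 of the 6 fits that left out 1 library (adjusted p from 0.0583 to 0.410 by limma in those 5, all but the one without HN replicate 2). Of its stretches 86.4% are shared with other genes, 67.5% with Hist1h2bk, which lies elsewhere on the chromosome and was lower in HN.

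Hist1h4j, an H4 gene (ENSMUSG00000067455.5, chr13:21735064-21735837, plus strand), was at 179, 121 and 121 normalized counts in R1 and at 329, 311 and 225 in HN. All HN libraries were above all R1 libraries. The log2 difference was 1.04 (standard error 0.23), with an adjusted p of 0.162 by limma without the block and 2.12e-07 with it. Of its stretches 24.6% are shared with other genes.

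Hist1h4i, an H4 gene (ENSMUSG00000060639.5, chr13:22040636-22041362, minus strand), had the largest difference of the 61 members. It was at 771, 445 and 532 normalized counts in R1 and at 106, 88.6 and 93.1 in HN, so even the lowest R1 library was far above the highest HN library. The log2 difference was -2.56 (standard error 0.23, adjusted p = 4.71e-04 by limma, and 3.30e-17 with the block). It shares 28.9% of its stretches with other genes, at most 19.2% with 1 gene, Hist1h4n, whose log2 difference was 0.05.

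Hist1h2bp, an H2B gene (ENSMUSG00000069308.7, chr13:21787461-21789213, plus strand), was at 123, 130 and 116 normalized counts in R1 and at 47.5, 32.6 and 30.3 in HN. These HN values rest on 39, 46 and 28 reads. The lines did not overlap, and the log2 difference was -1.74 (standard error 0.25, adjusted p = 0.0110 by limma, and 8.05e-09 with the block). Without R1 replicate 1 the adjusted p by limma was 0.107. It shares 44.1% of its stretches, most of them with Hist1h2bq, which had 0 reads.

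**Figure D1:**
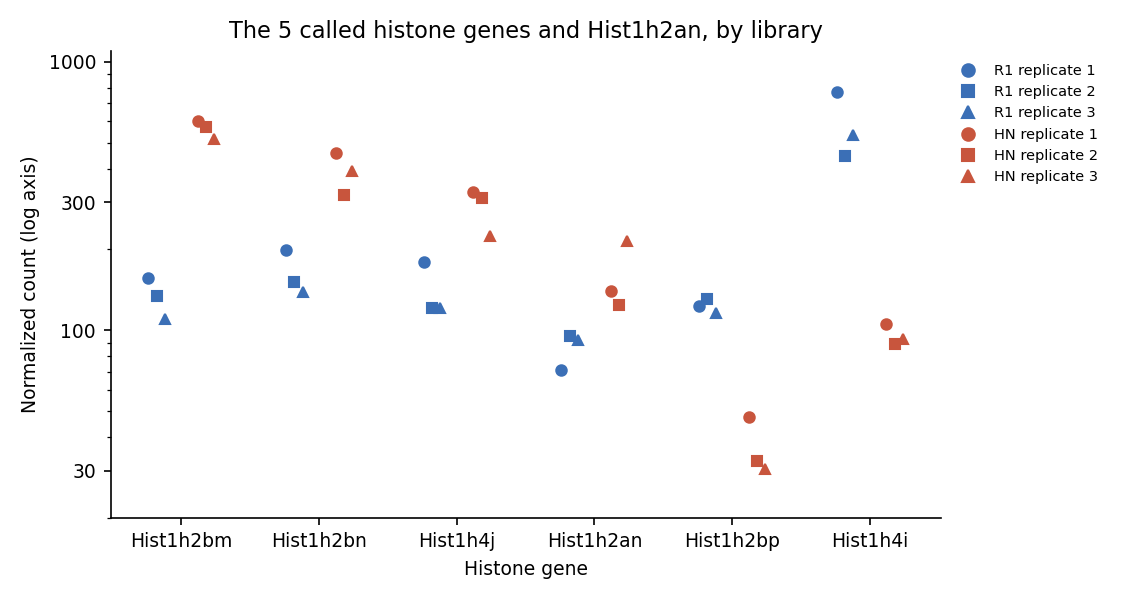
Normalized counts (log axis) of the 5 called histone genes and of Hist1h2an in each library, R1 in blue and HN in red, with the marker shape giving the replicate number. For every gene shown the 3 HN libraries lie wholly above or wholly below the 3 R1 libraries.

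The changes ran in both directions within the same class. Among the H2B genes Hist1h2bm and Hist1h2bn were higher and Hist1h2bp lower, and among the H4 genes Hist1h4j was higher with the block and Hist1h4i lower. At an adjusted p under 0.05 with the block and no limit on size, 8 of the 61 members rose (5.46% of all tested genes did) and 21 fell (4.02% of all tested genes did). The 21 were 5 H2A, 8 H2B, 5 H3 and 3 H4 genes, and no H1 gene passed in either direction. These counts rested on the second collection date in part, since without both of its libraries 4 members rose and 6 fell, and DESeq2 with the block gave 7 and 13. Among the 38 tested members with under 50% shared stretches, 4 rose and 13 fell.

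Genes that fell by less than the limit of a call included Hist1h3i and Hist1h3b, both H3 genes, Hist4h4, the H4 gene that lies alone on chromosome 6, and Hist2h2bb, an H2B gene. Gm42743 and Gm20628 together overlap all 381 exon bases of Hist2h2bb, so position alone does not assign its reads. Hist1h3i was at 351, 263 and 278 normalized counts in R1 and at 206, 163 and 153 in HN, with a log2 difference of -0.77 (adjusted p = 1.19e-05 by limma with the block). Hist4h4 was at 1336, 983 and 1270 in R1 and at 824, 714 and 821 in HN, with a log2 difference of -0.60 (adjusted p = 1.52e-05 by limma with the block). In both genes each R1 library was above each HN library.

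Genes that rose by less included Hist1h4c and Hist1h4b, H4 genes, and Hist1h3c, an H3 gene. Their log2 differences were 0.51, 0.51 and 0.54, with adjusted p of 4.56e-04, 1.54e-03 and 3.60e-04 by limma with the block. Hist1h4c was at 711, 475 and 545 normalized counts in R1 and at 857, 793 and 785 in HN. In all, the 3 HN libraries lay above the 3 R1 libraries in 6 members (5.23% of all tested genes) and below them in 15 (5.54% of all tested genes).

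**Figure D2:**
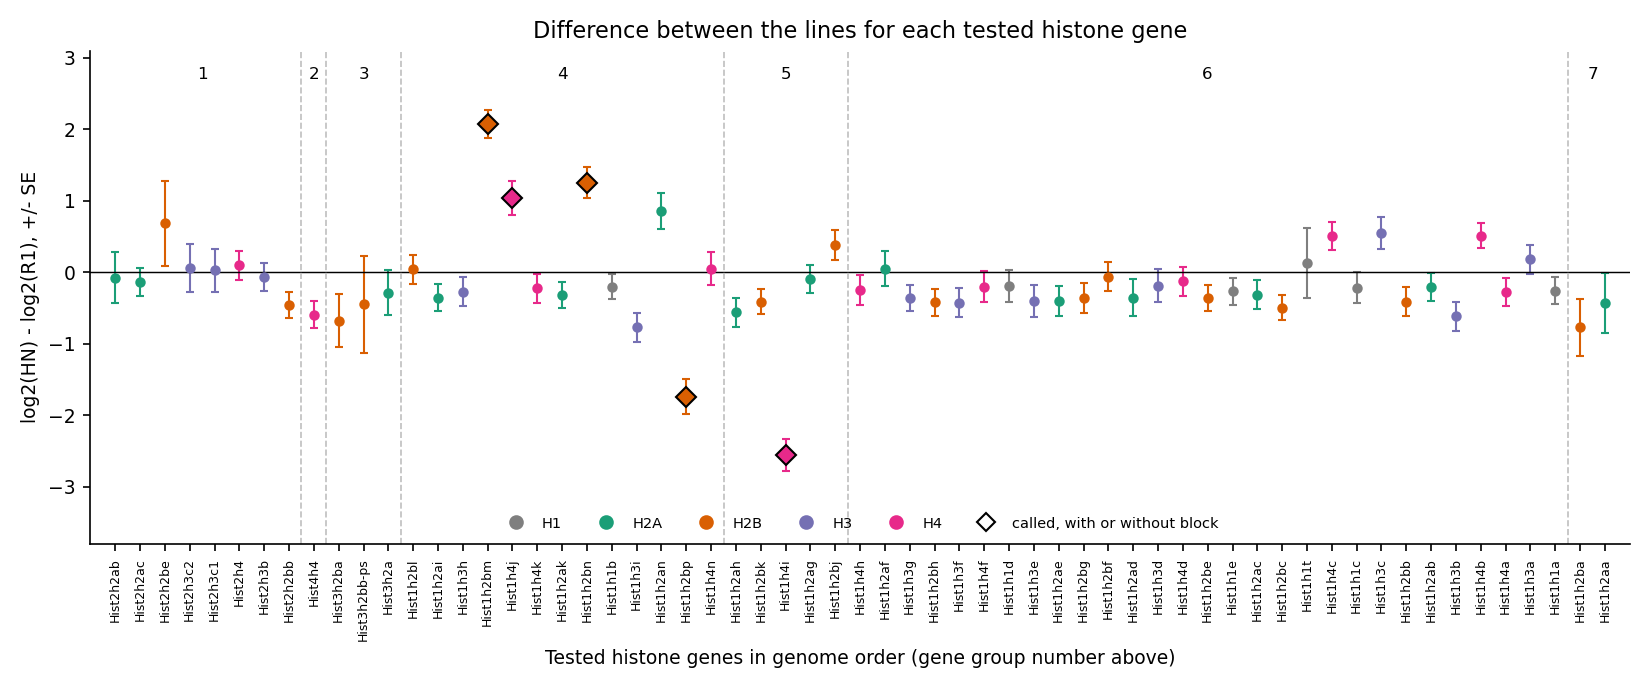
Log2 difference between HN and R1, with its standard error from limma, for the 61 tested histone genes in genome order, coloured by class. Dashed lines part the 7 gene groups numbered above, and diamonds mark the 5 called genes, which lie in groups 4 and 5.

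Against these single genes, the members as a whole were slightly lower in HN. The mean was lower in HN for 44 of the 61 tested members (72.1%, compared with 51.5% of all tested genes), and the median log2 difference was -0.25 for the members and -0.01 for all genes tested. In the same-date pairs, 36 members were lower in HN in all 3 pairs and 10 were higher in all 3, against 21.1% and 20.3% of all tested genes. Without R1 replicate 1, 38 members were lower and their median was -0.16.

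Sums over each class gave the same picture with less detail. The H1 genes together were at 8983, 6615 and 6869 normalized counts in R1 and at 6845, 5530 and 6645 in HN, and R1 replicate 1 stood above the other 5 libraries. The H4 genes, the class with the highest sum, were at 11066, 7625 and 8495 in R1 and at 8845, 7377 and 7631 in HN, and the lines overlapped. The H2A genes were at 5205, 4211 and 4486 in R1 and at 4103, 3516 and 4173 in HN, the only class in which no HN library reached an R1 library.

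The log2 ratio of the HN mean to the R1 mean was -0.24 for H1, -0.24 for H2A, -0.21 for H2B, -0.26 for H3 and -0.19 for H4. The SD between libraries of 1 line on the same scale was 0.21, 0.15, 0.14, 0.23 and 0.22 for these classes, so the ratios of H1, H3 and H4 were about as large as 1 SD. On each of the 3 dates, all 5 classes were lower in HN than in R1. Without R1 replicate 1 the ratios shrank to -0.09, -0.15, -0.11, -0.09 and -0.02. Whether the classes differ from each other was not tested.

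**Figure D3:**
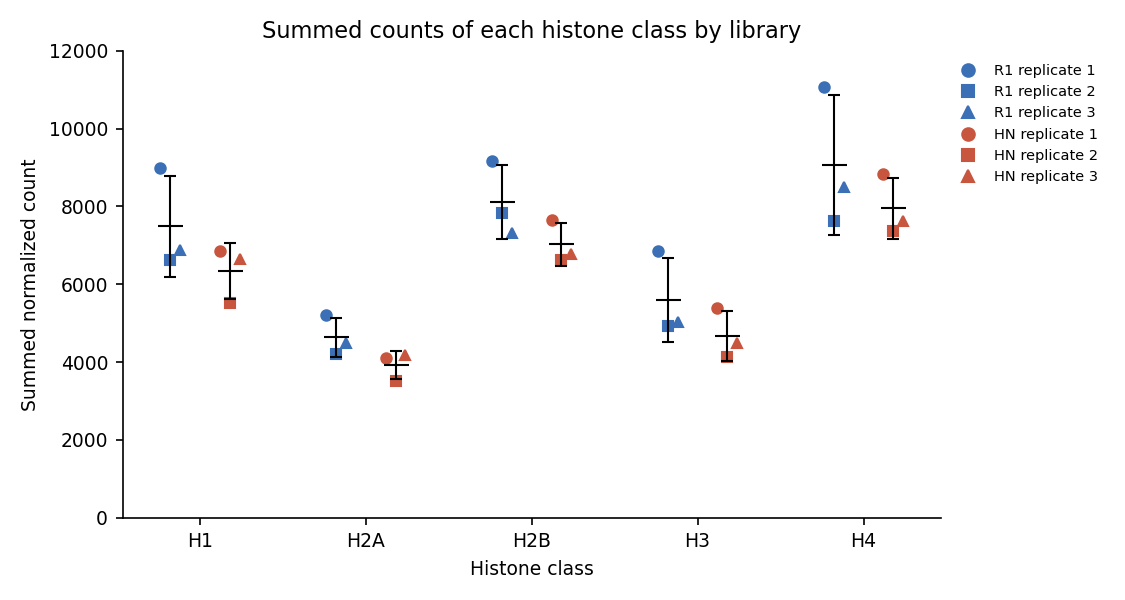
Summed normalized counts of the H1, H2A, H2B, H3 and H4 genes in each library, R1 in blue and HN in red, with the mean and SD of the 3 libraries in black. R1 replicate 1 is the highest library in all 5 classes.

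The called members had opposite effects on the class sums. Leaving them out changed the H2B ratio from -0.21 to -0.35, and the H4 ratio from -0.19 to -0.14. The H2B genes that were not called thus had a larger fall of their sum than the class as a whole.

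The members fell into 7 gene groups when a gap of over 100000 bases was taken as a border, a limit chosen after the data were seen. All 5 called members lay in 2 of them on chromosome 13. Group 4 (chr13:21715763-21837530, 18 members) held Hist1h2bm, Hist1h4j, Hist1h2bn and Hist1h2bp, and group 5 (chr13:22035164-22043676, 5 members) held Hist1h4i. Group 6 (chr13:23531050-23764406), the largest with 29 members, all of them tested, had log2 differences from -0.62 to 0.54. By limma 0 of them were called without the block, where 0.119% of all tested genes were called higher and 0.126% lower. With the block 0 were called too (0.911% and 1.04% of all tested genes were). At an unadjusted p under 0.05, 3 were higher and 3 lower (3.15% and 2.75% of all tested genes were). With the block and no limit on size, 3 of its 29 members rose and 12 fell (5.46% and 4.02% of all tested genes did). The Hist2 group on chromosome 3 (chr3:96219865-96270132, 10 members) ranged from -0.46 to 0.69. Whether the groups differ was not tested.

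Within group 4, direction changed from gene to gene. In genome order Hist1h3h (-0.27), Hist1h2bm (2.08), Hist1h4j (1.04) and Hist1h4k (-0.23) follow each other on the log2 scale, then Hist1h2ak (-0.32), Hist1h2bn (1.25) and Hist1h1b (-0.20), then Hist1h3i (-0.77), Hist1h2an (0.85) and Hist1h2bp (-1.74). In group 5, Hist1h4i (-2.56) lies between Hist1h2bk (-0.41) and Hist1h2ag (-0.10). The tested genes other than histones within 200 kb of group 4, Zkscan8, Zfp184 and Prss16, had log2 differences of -0.29, -0.13 and -0.04.

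Head-to-head pairs of H2A and H2B genes were compared because both start from 1 short stretch of DNA. With starts under 400 bases apart there were 13 such pairs, and both members were tested in 11. Among these 11 is Hist3h2bb-ps with Hist3h2a, whose H2B member is the processed pseudogene. In Hist1h2an and Hist1h2bp, whose starts have 242 bases between them, the H2A gene was higher in HN and the H2B gene lower. Hist1h2an was at 71.3, 95.4 and 91.7 normalized counts in R1 and at 140, 124 and 216 in HN, a log2 difference of 0.85 (adjusted p = 0.437 by limma, and 1.91e-04 with the block). It shares 85.8% of its stretches with other genes, and Gm44346 is annotated across it on the other strand.

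The log2 ratio of Hist1h2an to Hist1h2bp was -0.78, -0.44 and -0.34 in the R1 libraries and 1.54, 1.90 and 2.79 in the HN libraries. Thus Hist1h2bp had more counts in each R1 library and Hist1h2an in each HN library. The ratio of Hist1h2ak to Hist1h2bn was 2.03, 2.17 and 2.11 in R1 and 0.35, 0.72 and 0.51 in HN. With 3 libraries a line the exact two-sided permutation test gave p = 0.10 for both ratios, the smallest it can give. Hist1h2bp and Hist1h2bn were already called on these same values, so the test gives no separate support for these 2 pairs. Of the 11 pairs compared, 4 reached this smallest p. A pair with no difference between the lines reaches it with a probability of 0.10. The others were Hist2h2ac with Hist2h2be and Hist1h2bl with Hist1h2ai, whose members differed by 0.83 and 0.40 on the log2 scale. Hist2h2be had only 5 to 20 reads in a library, so the ratio of its pair has a wide error.

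In the other 9 pairs the members differed by 0.04 to 0.83 on the log2 scale. Hist1h2ae and Hist1h2bg, with 175 bases between their starts, had differences of -0.40 and -0.36 and stayed closest to each other. Hist1h2ah and Hist1h2bk had -0.56 and -0.41. In these 4 genes the fall passed the adjusted p with the block (0.0255, 6.90e-03, 3.63e-03 and 3.27e-03 by limma).

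**Figure D4:**
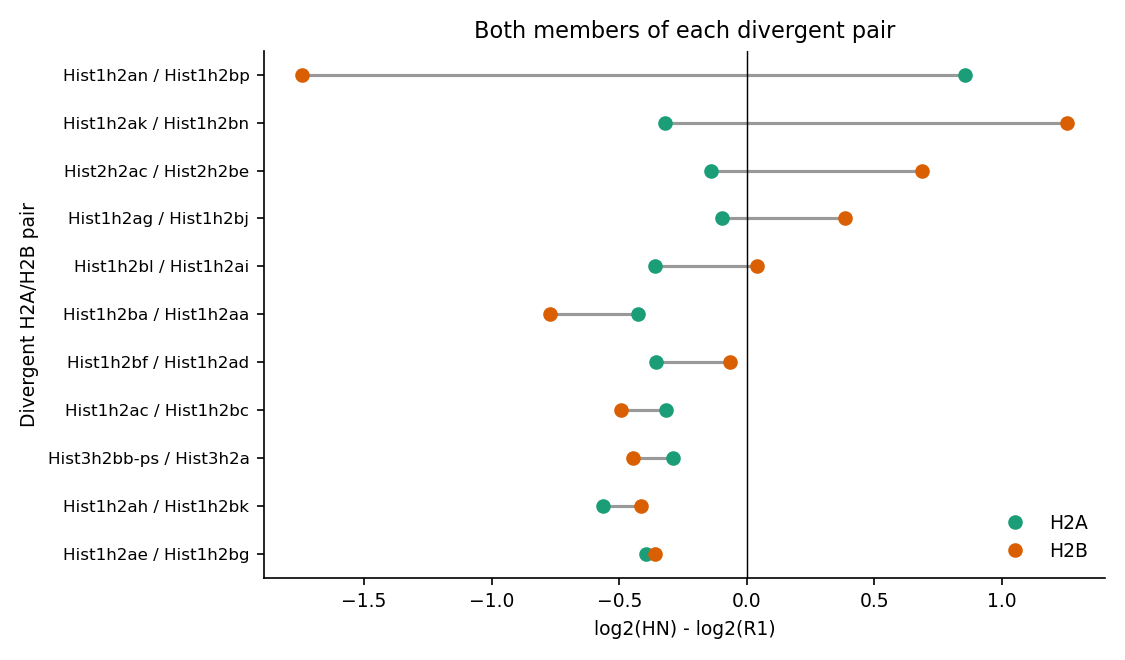
Log2 difference between HN and R1 of the H2A gene (green) and the H2B gene (orange) of each of the 11 head-to-head pairs tested, joined by a line and ordered by their distance. The top pair, Hist1h2an and Hist1h2bp, lies on both sides of 0, at 0.85 and -1.74. The H2B member paired with Hist3h2a is a processed pseudogene.

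Many histone genes differed between the collection dates. With the line in the model, 40 of the 61 tested members (65.6%) differed between dates, against 46.0% of all tested genes (F-test of limma, adjusted p under 0.05). Of these 40, 34 were lower on both later dates than on the first (85.0%, compared with 20.5% of all genes that differed between dates). The median log2 difference from the first date was -0.33 on the second and -0.29 on the third, compared with 0.01 and -0.05 for all genes tested.

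The Hist3 genes and the pair Hist1h2ba and Hist1h2aa, which are known for expression in testis, went the other way on the third date. Hist3h2a, an H2A gene, was at 598, 441 and 880 normalized counts in R1 and at 438, 357 and 813 in HN, with log2 differences from the first date of -0.37 on the second and 0.72 on the third (adjusted p = 9.47e-08 by limma). Thus the third library was the highest in both lines. Hist1h2aa and Hist1h2ba had third-date differences of 1.06 and 1.03 at 12.2 to 59.3 normalized counts.

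The summed counts of RNAs that normally have no poly(A) tail moved with the histone sums in part. Of 19 such RNAs listed, 12 were in the table, among them Rmrp and Rpph1, the RNA parts of the RNase MRP and RNase P enzymes. Together they were at 19340, 11403 and 14781 normalized counts in R1 and at 16349, 10849 and 12215 in HN, and all histone genes at 41266, 31223 and 32204 in R1 and at 32831, 27188 and 29722 in HN. In both sums R1 replicate 1 was the highest library and HN replicate 2 the lowest. Rmrp and Rpph1 made up most of the first sum, at 7296 and 10275 of the 19340 in R1 replicate 1. Some of the others, such as Scarna2, Scarna13 and Snord17, were lowest on the third date in both lines. By line, 8 of the 11 tested RNAs had a lower mean in HN and 3 a higher one, with Scarna2 and Scarna13 among the 3. Of the 11 RNAs tested, 8 passed the date test, all 8 of them lower on both later dates. The part of how much RNA without a tail entered each library in the histone results was not tested.

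The genes of S phase followed the histones by date only in part. The 29 S phase genes, such as those for the MCM helicase and for PCNA, summed to 18938, 21973 and 16072 normalized counts in R1 and to 17941, 22680 and 17229 in HN, highest on the second date in both lines, when the histone sums were at their lowest, and lowest on the third date. Their median log2 difference from the first date was 0.24 on the second and -0.21 on the third, with 23 of 29 lower on the third. Histone variants listed apart from the members, such as H2afz, H3f3b and H2afx, summed to between 4882 and 5595 in all libraries. Of the 11 variants tested, 6 passed the date test, and 3 of these were lower on both later dates.

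**Figure D5:**
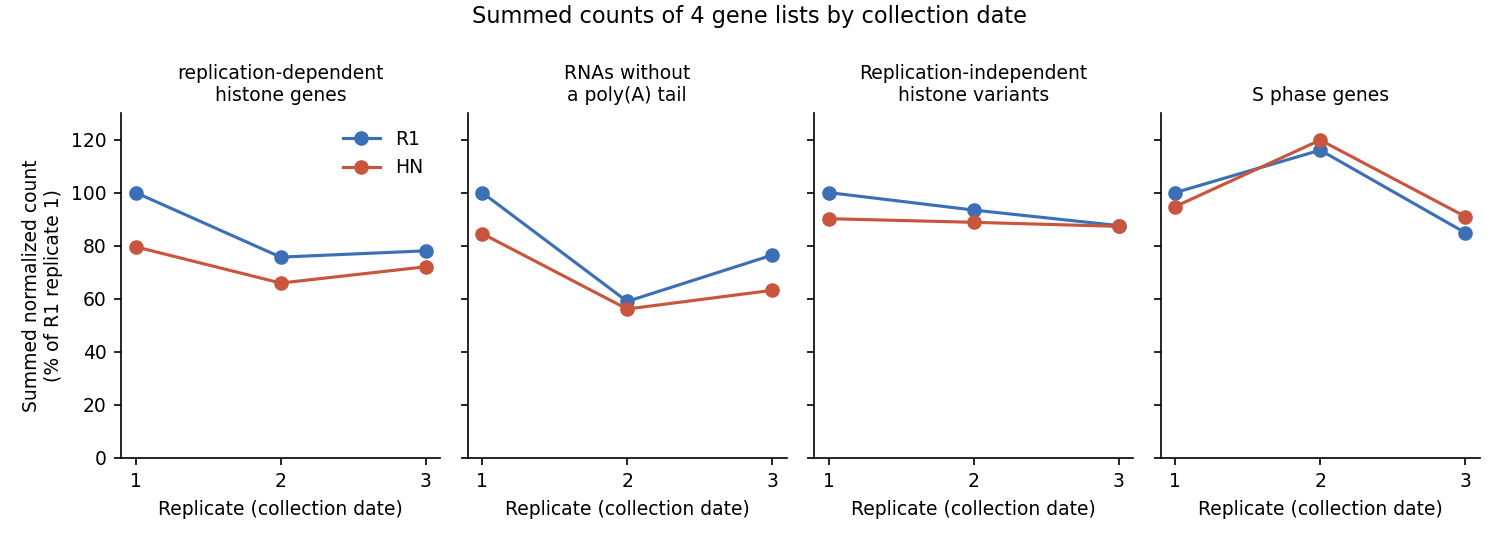
Summed normalized counts of 4 gene lists by collection date, as a percent of R1 replicate 1, with R1 in blue and HN in red. Histone genes and RNAs without a poly(A) tail are highest on the first date in both lines, and the S phase genes are highest on the second.

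Few genes that act on histone mRNA and protein passed the thresholds between the lines, and few of all tested genes did. Of 30 genes for transcription, processing and decay of histone mRNA, none was called by limma with or without the block. Of all tested genes, 0.119% were called higher and 0.126% lower without it, and 0.911% and 1.04% with it. A count of 0 among 30 is near these shares. At an unadjusted p under 0.05, 1 of the 30 was lower (2.75% of all tested genes were). Slbp, the stem-loop binding protein gene, was at 583, 729 and 468 normalized counts in R1 and at 511, 571 and 495 in HN, a log2 difference of -0.15 (standard error 0.20). Npat, which activates histone genes in S phase, had 0.29 and Casp8ap2, which takes part in histone mRNA processing, -0.03. With the block, 2 of the 30 passed the adjusted p, beside 5.46% of all tested genes higher and 4.02% lower. They were Sympk, a scaffold of the cleavage complex, at 0.39 and Lsm1, a subunit of an mRNA decay complex, at -0.48.

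In the other lists, the shares that passed the adjusted p with the block are to be read beside the 5.46% and 4.02% of all tested genes. None of the 11 tested histone variants passed, while 2 of 23 tested chaperone genes rose with the block, Atrx, a remodeller that deposits H3.3, by 0.62 and Ipo4, a histone importer, by 0.40 on the log2 scale. Among the 29 S phase genes 2 passed, Rrm2 and Uhrf1 (0.38 and 0.57), and among the 18 genes of G2 and mitosis 1, Ube2c (0.40), shares near that of all genes. With the block T, a mesoderm gene, was called higher (1.21) and Thy1, a cell surface gene of fibroblasts, lower (-1.54), both at 63.1 normalized counts or less in every library.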

How the data were processed

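Total RNA of R1 and HN mESCs, 3 libraries each, was sequenced from TruSeq RNA libraries, a kit that does not mark strand. Each deposited value is the normalized signal of 1 gene in 1 library. Per the labels and the methods, the authors aligned reads to mm10/GRCm38 with STAR, removed duplicates with Picard, counted reads with HTSeq and divided each library by its DESeq2 size factor. Versions, gene annotation and HTSeq settings are not given in the sources used here. All values were whole multiples of 1 read (100%, within 0.01 read), so reads could be recovered for edgeR 4.0.16 and DESeq2 1.42.0 as alternatives. Standard errors are those of limma. They come from the spread between libraries of a line, moderated towards the trend over all tested genes. Read counts speak to counting error only. A count of 3 reads was worth 2.13 to 4.04 normalized counts.

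The lines were compared with limma 3.58.1 (variance trend, R 4.3.3) on log2(value + 1), over 14276 genes with a mean of at least 5, with Benjamini-Hochberg adjustment over all of them. Log2 differences are on this scale and understate those of low genes. Replicate numbers pair the libraries by the collection dates in the labels, and deviations from the line means correlated by 0.25, 0.69 and 0.77 within the pairs. P-values refer to the spread between these collections of 1 line each. In limma this spread is moderated towards the trend over all tested genes. With few libraries a line, very small p-values with the block thus rest in large part on the spread of other genes. They do not measure the spread of the named gene alone. Pair ratios were tested with exact permutation (scipy 1.17.1).

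Positions, stem-loops and shared 50-base stretches come from GENCODE M21 (GRCm38), in which all 68 members were found. Promoters come from RefSeq (61 members matched, by symbol or synonym, with the first window where a gene had several). The fits were tested on simulated data. The members and gene lists were chosen with earlier results of these data known. Named were called members, the 5 with the largest difference each way, the 2 highest of each class, neighbours of called members, and listed genes that were called, with Slbp, Npat and Casp8ap2. Other genes were named after their values were seen. Alternatives were other tools, scalings, filters, pseudocounts, the block and leaving out each library.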

Additional observations from a re-analysis of the deposited data

How the results depend on the processing

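The directions of the 5 called genes were the same in all 20 fits. Of the 4 genes called without the block, limma without the variance trend called none higher (0) and none lower (0), with 7 higher and 10 lower at an unadjusted p under 0.05 in limma with the trend, and edgeR without the block called 1 higher, Hist1h2bm. Leaving out 1 library gave from 1 to 2 called higher and from 1 to 2 called lower. Hist1h4j was called in 4 fits, with the block by limma, edgeR and DESeq2 and by DESeq2 without it. Beyond Hist1h4j, the replicate block changed no call by limma among the 61 members.

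The H2B ratio was -0.43 over the 4 genes with under 20% shared stretches and -0.35 with the called members left out. The share leaves out genes that overlap a member. Of these 4, Hist2h2bb had the highest mean, and all its 381 exon bases are overlapped by Gm42743 or Gm20628. Hist1h2be has 496 overlapped bases, so the 4 genes are not free of ambiguous reads. The H3 ratio could not be given over such genes, as no H3 gene has so few shared stretches. With the replicate block, the counts past the adjusted p without the libraries of the second date were 4 higher and 6 lower, and from 4 to 7 and from 6 to 31 over the 3 dates left out in turn, and DESeq2 gave 13 lower. Small differences turned sign when 1 library was left out: Hist1h1d from -0.35 to 0.0454, Hist1h2ag from -0.19 to 0.0041 and Hist1h4d from -0.25 to 0.0127, each above 0 only without R1 replicate 1. The count of members lower in HN was from 38 to 48 with 1 library left out. The other tools, scalings and dates left out for the counts past the adjusted p with the block, sums without the called members and counts of lower means were added after seeing the data. Members under about 30 reads in a library, such as Hist2h2be, have wide errors (standard error 0.60).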
